A study of Arabidopsis thaliana with 7 samples.

Results

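A set of 10 seed storage and maturation genes, out of the 13333 genes that could be named, was followed across all arrays of a study of Arabidopsis thaliana exposed to cadmium sulfide quantum dots (CdS QDs), which are nanometre-sized crystals of a cadmium salt. They comprise the thionin-family gene AT2G15010, the cupin storage protein genes AT1G03890, AT2G28490 and PAP85, the oleosin genes AT3G01570 and OLEO3, the late embryogenesis abundant (LEA) protein gene AT3G15670, and AT1G04560, AT1G54870 and AT1G14950. They were picked because their levels were high on the array of the mutant atnp02 at 80 mg/L, so the differences from that array are given as a description, with no test.

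Total RNA of Ler-0 seedlings was measured on 7 Affymetrix ATH1 arrays, 1 per group. Seeds were germinated on Murashige and Skoog (MS) medium, and after 14 days the plants were moved to MS medium with or without CdS QDs for 21 days. The groups were WT at 0, 40 and 80 mg/L, and the mutants atnp01 and atnp02 at 0 and 80 mg/L each. The labels describe both mutants as tolerant of CdS QDs and 80 mg/L as the minimum inhibitory concentration for WT, and each mutant is a single line whose altered gene is not given in the sources used here. All groups share the accession Ler-0, a photoperiod of 16 h and a temperature of 24 °C, and 0.1 g of plants was extracted for each array.

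Seeds store nitrogen, carbon and sulfur in storage proteins, among which the cupins (cruciferins and vicilin-like globulins) and the 2S albumins are the main classes in Arabidopsis, and store oil in bodies coated by oleosins. LEA proteins accumulate late in seed development and are associated with tolerance of drying. The genes of this programme are switched on by the embryo transcription factors LEC1, LEC2, FUS3 and ABI3 and by abscisic acid, and most are silent or nearly so in leaves and roots after germination.

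Levels are log2 values as deposited. Array medians lay between 3.39 and 3.47 and lower quartiles between 1.29 and 1.36. Of the tissue markers, the photosynthesis genes RCA (from 11.46 to 11.62), LHCB4.1 (from 10.52 to 10.98) and LHCB4.2 (from 9.23 to 10.19) and the root gene PYK10 (from 10.23 to 10.70) were bright on all 7 arrays. No level is compared between genes, since each probe set has its own brightness. With 1 array per group, a difference between arrays has no error estimate, and a higher share of cells of a type and more RNA per cell cannot be told apart in RNA of whole plant material. Poly-A spike-in controls, which follow amplification, averaged 2.91 in atnp02 at 80 mg/L and between 2.99 and 3.71 on the other arrays, and hybridization controls 7.44 and between 7.43 and 7.59; their part in the results was not tested. Each of the genes was read on 1 probe set.

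The thionin-family gene AT2G15010 belongs to a family of small cysteine-rich peptides. Its level was 1.22 in WT at 0 mg/L, 1.22 at 40 mg/L and 1.06 at 80 mg/L. It was 1.27 in atnp01 at 0 mg/L and 1.27 at 80 mg/L, and in atnp02 it was 1.26 at 0 mg/L and 4.77 at 80 mg/L. The other 6 arrays spanned 0.21, and atnp02 at 80 mg/L lay 3.50 above the highest of them. On that array AT2G15010 stood at the 67.1 percentile of probe sets, and on the others between the 15.9 and 24.0 percentiles.

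The cupin storage protein genes AT1G03890 and AT2G28490 were high on the same single array. AT1G03890 was at 0.89, 0.90 and 0.94 in WT at 0, 40 and 80 mg/L, at 0.98 and 1.12 in atnp01 at 0 and 80 mg/L, and at 1.1 and 4.34 in atnp02. AT2G28490 was at 1.03, 0.91 and 0.88 in WT, at 1.13 and 0.85 in atnp01, and at 1.77 and 4.68 in atnp02. The gap between atnp02 at 80 mg/L and the highest other array was 3.22 for AT1G03890 and 2.91 for AT2G28490. For AT2G28490 that highest other array was atnp02 at 0 mg/L, which lay above the 5 arrays of WT and atnp01.

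PAP85, which encodes a vicilin-like cupin of the seed, departed from this pattern because its level was also high on the exposed atnp01 array. It was at 2.29, 2.22 and 3.18 in WT at 0, 40 and 80 mg/L, at 2.77 and 5.02 in atnp01 at 0 and 80 mg/L, and at 2.17 and 5.44 in atnp02. The 2 exposed mutant arrays differed by 0.42, and the other 5 arrays all lay below both. In each line the array at 80 mg/L was above that at 0 mg/L, with differences of 0.89 for WT, 2.25 for atnp01 and 3.27 for atnp02, while WT at 40 mg/L differed from WT at 0 mg/L by -0.07.

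The oleosin gene AT3G01570 was at 1.48, 1.30 and 1.1 in WT at 0, 40 and 80 mg/L, at 1.39 and 1.48 in atnp01, and at 1.48 and 3.62 in atnp02. OLEO3, another gene for an oil body coat protein, was at 1.1, 1.28 and 1.26 in WT, at 1.51 and 1.32 in atnp01, and at 1.18 and 2.36 in atnp02. Both were highest in atnp02 at 80 mg/L, with gaps of 2.14 and 0.85. The level of OLEO3 there was the only one of the 10 genes' levels below the array's median, by 1.1, at the 39.7 percentile.

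The LEA gene AT3G15670 was at 1.00, 1.22 and 1.1 in WT at 0, 40 and 80 mg/L, at 1.1 and 0.81 in atnp01, and at 1.1 and 3.97 in atnp02. Its gap was 2.75. The 6 other arrays spanned 0.41, and the exposed atnp01 array was the lowest of all.

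Of the other genes, AT1G04560 encodes a membrane protein of the AWPM-19 family, AT1G54870 a short-chain dehydrogenase and AT1G14950 a protein of the polyketide cyclase and lipid transport superfamily. AT1G04560 was at 1.58, 1.24 and 1.35 in WT at 0, 40 and 80 mg/L, at 1.69 and 1.02 in atnp01, and at 1.73 and 4.48 in atnp02. AT1G54870 was at 0.78, 0.94 and 0.85 in WT, at 0.88 and 0.94 in atnp01, and at 1.15 and 3.62 in atnp02. AT1G14950 was at 1.36, 1.36 and 1.49 in WT, at 1.15 and 1.12 in atnp01, and at 1.40 and 4.08 in atnp02. For each of these genes the 6 other arrays lay within 0.71, 0.37 and 0.37 of each other, and the gaps were 2.75, 2.47 and 2.59.

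**Figure D1:**
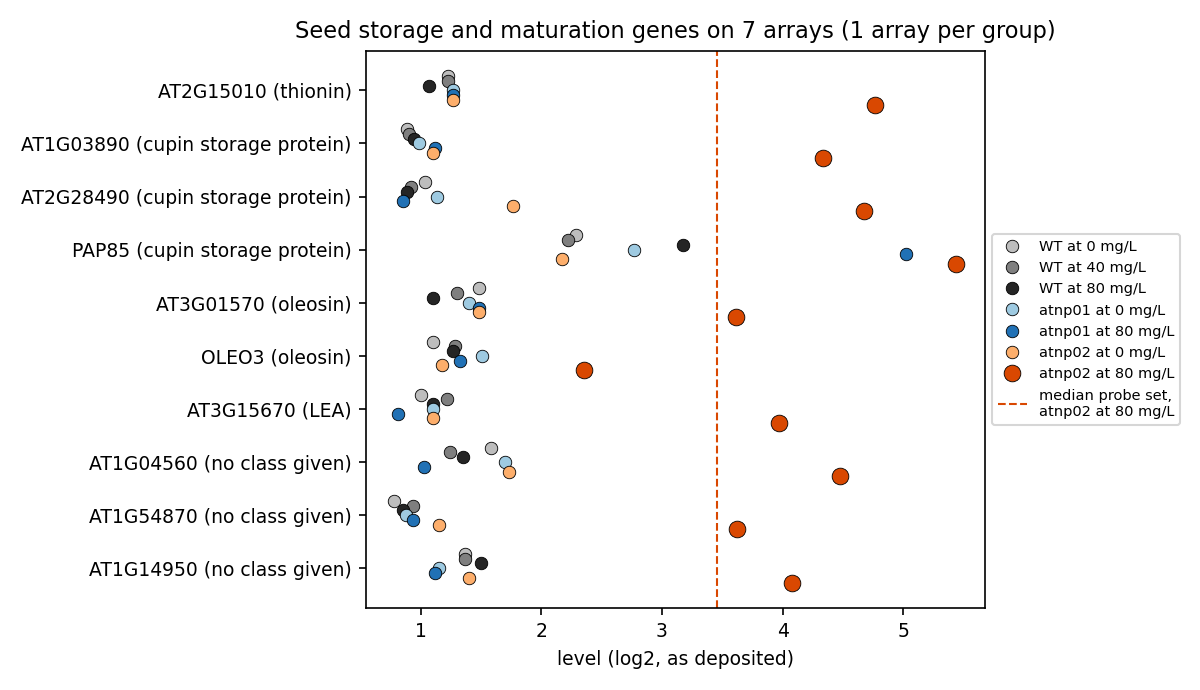
Level (log2, as deposited) of each of the 10 genes on the 7 arrays, 1 point per array, with the median probe set of the atnp02 array at 80 mg/L as a dashed line. The atnp02 array at 80 mg/L lies right of the other 6 for every gene, and right of the dashed line for all but OLEO3. PAP85 in atnp01 at 80 mg/L, at 5.02, is the only point of another array right of that line.

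The array of atnp02 at 80 mg/L was the highest of 7 for 10 of 10 genes. Over all named genes it was the highest for 9.47%, a share that is given for scale only, since the genes were chosen on this array. The 10 genes were at least 1 higher (2-fold) there than in WT at 0 mg/L, where 3.5% of all named genes were, than in WT at 40 mg/L (1.13% of all), than in WT at 80 mg/L (0.54% of all) and than in atnp02 at 0 mg/L (3.82% of all). Against atnp01 at 0 mg/L, 9 of 10 were at least 1 higher (3.37% of all), OLEO3 being the exception at 0.85. Against atnp01 at 80 mg/L, 9 of 10 were (0.54% of all), PAP85 being the exception at 0.42. The median difference of the 10 genes lay between 2.81 and 3.06 in these 6 comparisons, which all share the atnp02 array at 80 mg/L, and the median over all named genes between -0.04 and 0.00.

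Above the highest of the other 6 arrays by at least 1 lay 25 of the 13333 named genes, or 0.188%. Of these, 8 were seed storage and maturation genes as listed above, all with a gap over 2, and only 4 other named genes passed a gap of 2. These counts rest on the values by which the genes were chosen and support nothing further.

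All 10 genes were dim. None reached log2 6 on any array, the level at and above which between 1672 and 1749 named genes stood on an array, so a filter at that level removes every one of them. Of the 60 values on the 6 other arrays, 59 lay below their array's median and 38 below its lower quartile, and 18 were identical to the value of another probe set on the same array, as were 29.6% of all values on these arrays. On the atnp02 array at 80 mg/L, 1 of 10 lay below the median, none below the lower quartile, and 2 were identical to another probe set's value, against 31.7% of all values there. Differences from such low values have no exact size, and when an offset of 16 was added on the linear scale, 2 of 10 genes, AT2G15010 and AT2G28490, kept a gap of at least 1, as 3 of all named genes did in place of 25. In that setting the gap of AT1G03890 was 0.996 and that of AT3G01570 was 0.589.

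**Figure D2:**
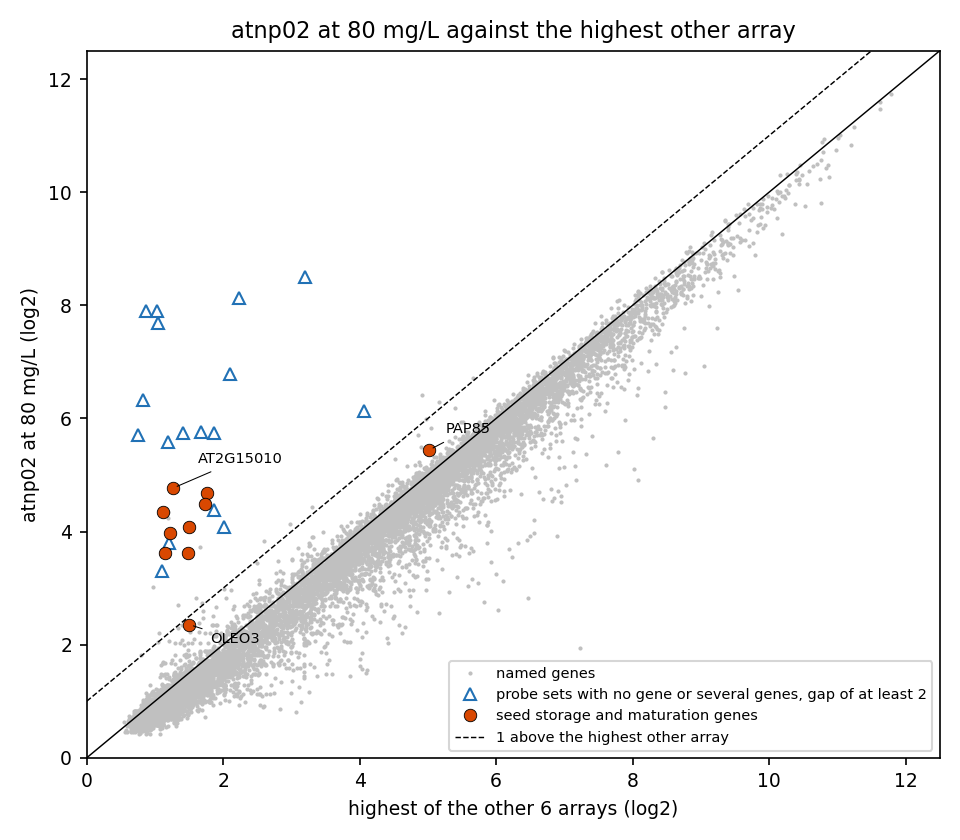
Level on the atnp02 array at 80 mg/L (y axis, log2) against the highest of the other 6 arrays (x axis, log2), 1 point per named gene, with the seed storage and maturation genes as filled circles and probe sets without a single named gene and with a gap of at least 2 as open triangles. The solid line marks equal levels and the dashed line a gap of 1; 8 of the 10 genes lie above the dashed line, while OLEO3 (0.85) and PAP85 (0.42) lie between the lines.

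Outside atnp02 at 80 mg/L, exposure was not accompanied by a comparable difference in 9 of the 10 genes. Between WT at 80 and 0 mg/L, no gene was 1 higher and none 1 lower, where 2.46% and 1.34% of all named genes were, and the differences ranged from -0.38 for AT3G01570 to 0.89 for PAP85, with a median of 0.06. Between WT at 40 and 0 mg/L the range was -0.34 to 0.22, again with none 1 higher or lower, where 2.37% and 1.21% of all named genes were. In atnp01, 1 of 10 genes, PAP85, was at least 1 higher at 80 mg/L (3.14% of all) and none was 1 lower (2.07% of all), and the other 9 differed by -0.67 to 0.14. The genes were chosen as high in atnp02 at 80 mg/L relative to each of these arrays, so low values on all of them, and small differences among them, follow in part from the choice and are no independent evidence.

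The effect of 80 mg/L shared by WT and atnp01 was tested with limma on their 4 arrays, with the line as a covariate and without either atnp02 array. The model has 1 residual degree of freedom before moderation, and its error is the difference between the responses of both lines, not the spread among plants. At an adjusted p (Benjamini-Hochberg over 13333 genes) of 0.05, 0 of 10 genes passed, where 187 named genes (1.4%) were higher and 102 (0.765%) lower, and 2 of 10, PAP85 and AT1G04560, had an unadjusted p under 0.05, as did 3033 of all named genes (22.7%). The genes were picked as low on these 4 arrays relative to atnp02 at 80 mg/L. The count of 0 and the p values of single genes given here are thus a description and not independent tests. PAP85 had a coefficient of 1.57 (SE 0.38, limma adjusted p = 0.13) and was higher in 2 of 2 lines. After quantile or cyclic loess normalization its limma adjusted p was 0.0258 and 0.0146, so its call depends on the scaling. AT1G04560 had a coefficient of -0.45 (SE 0.15, limma adjusted p = 0.199). The coefficients of the other 8 genes lay between -0.21 and 0.10.

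**Figure D3:**
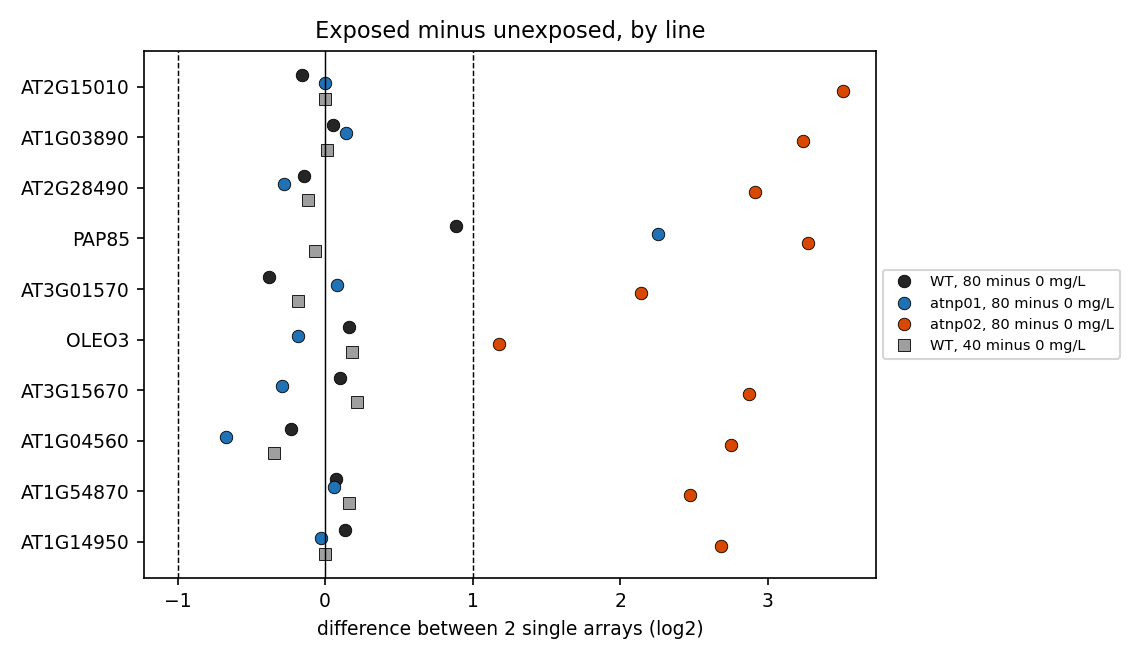
Differences between exposed and unexposed arrays (log2) for each of the 10 genes, with circles for 80 minus 0 mg/L in WT, atnp01 and atnp02 and squares for 40 minus 0 mg/L in WT; dashed lines mark differences of 1 and -1, and every point is a pair of single arrays. The atnp02 points lie between 1.18 and 3.51, and PAP85 in atnp01, at 2.25, is the only other point beyond a dashed line.

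Without exposure the mutants differed little from WT in these genes, as in nearly all named genes. The genes were chosen as low on the unexposed arrays relative to atnp02 at 80 mg/L, so small differences follow in part from the choice. At 0 mg/L atnp01 minus WT ranged from -0.21 to 0.48, with the highest value for PAP85, and none was 1 higher or lower (0.21% and 0.263% of all named genes). For atnp02 minus WT at 0 mg/L the range was -0.12 to 0.74, with none 1 higher or lower (0.113% and 0.12% of all), and the highest value was that of AT2G28490. At 80 mg/L, atnp01 minus WT was 1.84 for PAP85 and between -0.37 and 0.38 for the other 9, so 1 of 10 was at least 1 higher (0.398% of all) and none 1 lower (0.623% of all).

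Other seed genes were taken from 5 lists with 62 entries, covering storage proteins, oil body proteins, LEA and desiccation proteins, other maturation genes and regulators. The probe annotation named 22 of these, and the other 40, among them the cruciferin and 2S albumin genes and all 12 regulators on the list, such as LEC1, FUS3 and ABI3, were not analysed here. The counts for the 22 genes therefore do not describe the 40 left out. Whether any probe set without a name belongs to one of those 40 was not examined. None of the 22 reached log2 6 on any array, and 9 of them were highest in atnp02 at 80 mg/L, where 9.47% of all named genes were. Only the LEA gene AT4G21020 had a gap of at least 1 (0.188% of all), with a level of 1.81 against 0.53 to 0.80 on the other arrays, and the median gap was -0.09 against -0.22 for all named genes. Genes below log2 6 that are named from these lists and from those of other organs and responses were chosen after their values were seen.

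Within atnp02, 4 of the 22 genes were at least 1 higher at 80 than at 0 mg/L (3.82% of all named genes) and none was 1 lower (2.14% of all). These were AT4G21020 (1.06), the vicilin-like cupin gene AT4G36700 (1.46), and the LEA genes AT1G32560 (1.91) and AT3G02480 (2.72). AT4G36700 was at 1.16, 1.11 and 1.43 in WT at 0, 40 and 80 mg/L, at 1.29 and 2.05 in atnp01, and at 1.37 and 2.83 in atnp02, so that, as for PAP85, the exposed mutant arrays were the highest. AT3G02480 was at 2.04, 3.64 and 3.38 in WT, at 2.92 and 4.66 in atnp01, and at 2.05 and 4.76 in atnp02. It was the only one of the 22 to be 1 higher at 80 mg/L in WT (2.46% of all) or in atnp01 (3.14% of all), and in the limma fit without atnp02 it rose by 1.54 (SE 0.16, limma adjusted p = 0.0469). This call was lost with the linear offset, without the intensity trend, with a linear dose term and without the line term, with limma adjusted p from 0.0525 to 0.242. The remaining LEA genes had levels between 0.62 and 2.23 in atnp02 at 80 mg/L, and the oleosin-family genes AT3G18570 and AT2G25890, at 1.28 and 1.38 there, lay below their levels of 1.53 and 1.48 in atnp02 at 0 mg/L.

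**Figure D4:**
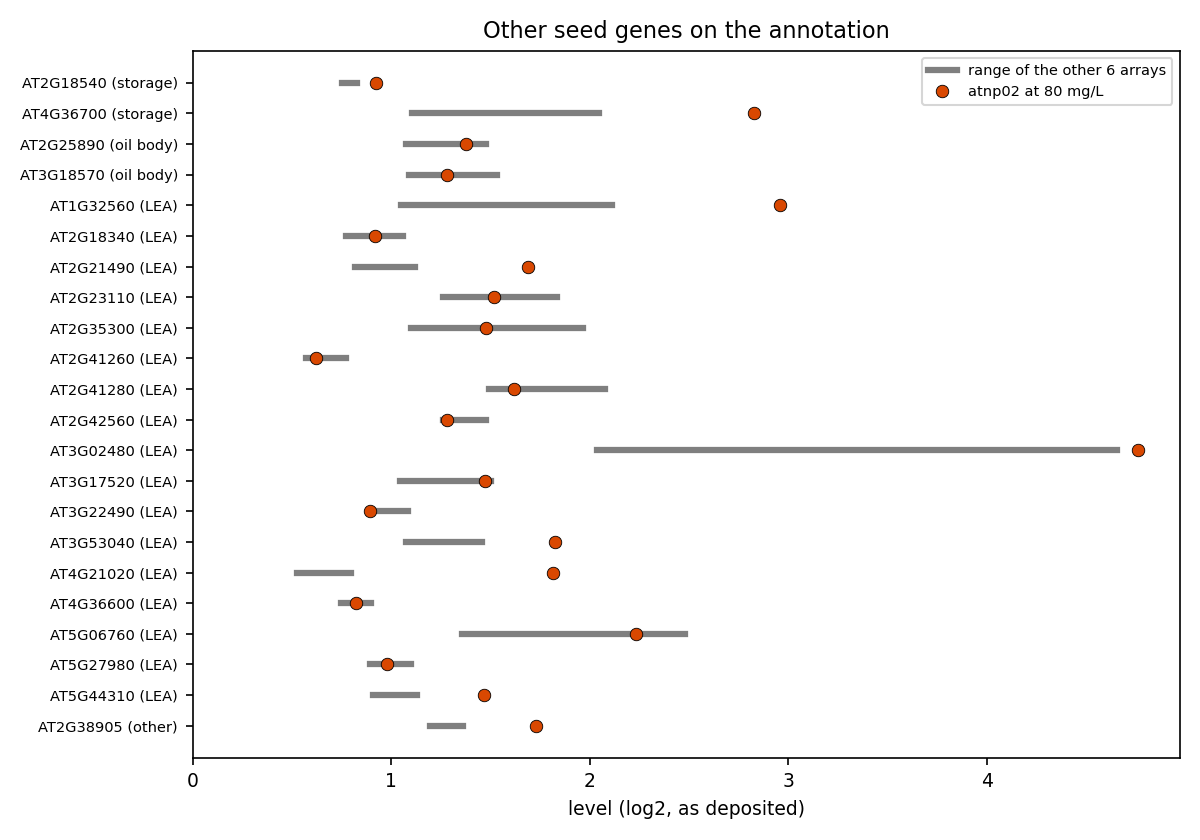
Level (log2, as deposited) of the 22 other seed genes on the annotation, with a bar for the range of the other 6 arrays and a circle for atnp02 at 80 mg/L. For 9 genes the circle lies right of the bar, by 1.01 for AT4G21020 and by less than that for the others.

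Markers of other organs gave few values. The seed coat list had 5 entries, of which BAN, a proanthocyanidin synthesis gene, was measured; it lay between 0.97 and 1.18 on the other 6 arrays and at 1.29 in atnp02 at 80 mg/L. The tapetum and pollen list also had 5 entries, of which 2 were measured. The tapetum gene A9 (AT5G07230) was at 1.75, 2.66 and 3.86 in WT at 0, 40 and 80 mg/L, at 1.62 and 2.76 in atnp01, and at 1.48 and 3.26 in atnp02, so it was higher on exposed arrays of all 3 lines and highest in WT at 80 mg/L. AMS, a tapetum transcription factor gene, lay between 0.80 and 1.1 on all arrays. None of the 7 floral organ genes was on the annotation. The 2 measured tapetum genes thus differed in pattern, and the part of flower or fruit tissue in the result was not tested.

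Lists of genes tied to drying, to reserve use and to leaf senescence had 1 measured gene each, too few to describe a group. COR15A, a cold and drought gene that responds to abscisic acid, was the only measured one of 14 such genes. It was at 4.19 in WT at 80 mg/L, 3.29 in atnp01 at 80 mg/L and 4.23 in atnp02 at 80 mg/L. The other arrays were at 1.17 to 1.73, and atnp02 at 80 mg/L was the highest by 0.04. ICL, the isocitrate lyase gene of oil use after germination, was highest in WT at 40 mg/L, at 3.82, and was at 3.34 in atnp02 at 80 mg/L. SAG29, a senescence-associated gene, was at 6.69 in atnp02 at 80 mg/L, below atnp01 at 80 mg/L (7.26) and WT at 40 mg/L (6.98).

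Other genes were ranked by the same gap, which does not require low levels on the other arrays. Among genes at log2 6 or above in atnp02 at 80 mg/L, the 10 with the largest gaps were AT4G19430 (1.51), AT5G33370 (1.13), AT2G20870 (1.06), AT5G22430 (0.79), AT1G80130 (0.34), AT2G43590 (0.31), AT4G09890 (0.30), AT4G30660 (0.30), AT5G56260 (0.29) and CYS1 (0.27), a cystatin gene. Only the first 3 had a gap of at least 1, and CYS1 was bright on all arrays, at 7.44 to 7.81. The other arrays of the first 3 were not uniformly low. AT4G19430, for instance, was at 3.09, 4.91 and 4.61 in WT at 0, 40 and 80 mg/L, at 3.36 and 3.73 in atnp01, and at 3.53 and 6.42 in atnp02.

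Below log2 6, the 4 other named genes with a gap over 2, singled out after their values were seen, had low levels on every other array. AT1G47540 was at 4.34 in atnp02 at 80 mg/L against 0.87 to 1.19 elsewhere, and AT5G38160 at 4.24 against 0.82 to 1.19. CES, which encodes a transcription factor of brassinosteroid signalling, was at 3.73 against 0.78 to 1.66. AT1G14940, the gene next to AT1G14950 on chromosome 1 and of the same superfamily, was at 3.01 against 0.72 to 0.98, so 2 neighbouring genes shared the pattern. On the other side of AT1G14950, AT1G14960 was at 3.15 in atnp02 at 80 mg/L and at 4.30 in atnp02 at 0 mg/L. Apart from AT1G14940, no measured gene next to one of the seed genes had a gap of at least 1. The largest gap among them was 0.54, for AT1G54860 beside AT1G54870. The other 13 named genes with a gap of at least 1 had gaps from 1.01 to 1.51.

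The highest gaps of the whole array were on probe sets that the annotation did not name. Over all non-control probe sets 0.246% had a gap of at least 1. Of 8730 probe sets without a name, 29 (0.332%) did, 16 had a gap of at least 2, and 7 of the 16 were at log2 6 or above in atnp02 at 80 mg/L. Probe set 253895_at was at 7.90 there and between 0.69 and 0.87 on the other 6 arrays, and 265095_at was at 7.90 against 0.79 to 1.03. The largest gap among the named seed genes, 3.50, was thus below the gaps of 7.03 and 6.87 of these probe sets, whose genes are not named here. Probe set 264735_s_at, listed with 4 genes, was at 6.79 against 1.33 to 2.10.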

How the data were processed

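Per the submitters' processing notes, the authors used Affymetrix Expression Console 1.1 and RMA; the deposited log2 values were used as they stand. Whether a step followed RMA is not given in the sources used here, so a log2 difference of 1 is taken as 2-fold with that limit. Of 22810 probe sets, 64 were controls; 14016 were on the platform annotation, 13513 of them with 1 gene and 503 with several, and 8730 were unlisted. Gene IDs matched the TAIR10.1 gene table for 13484, giving 13333 genes; for 145 genes with several probe sets the brightest stood for the gene.

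The members, lists and tests were chosen with earlier results of these data known. Differences between single arrays have no test. The fit used limma 3.58.1 (R 4.3.3) with an intensity trend over all named genes with no floor, and its code was tested on simulated data. Tables were made with Python 3.11.15 and pandas 2.3.3. Named were all 10 members, list genes at log2 6 or above on any array, and the 10 non-members at log2 6 or above in atnp02 at 80 mg/L with the largest gaps; others were named after their values were seen and are marked so. Alternatives were other normalizations, an offset of 16, probe set means, a floor of log2 6 and other fits.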

Additional observations from a re-analysis of the deposited data

Results flagged for a closer look

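Probe sets outside the named genes carried the same pattern at greater size: 253895_at, not on the annotation, had a gap of 7.03 above the highest other array in atnp02 at 80 mg/L, and 264735_s_at, listed with several genes, had a gap of 4.69.

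Several of the seed genes were lower at 80 than at 0 mg/L in WT, in atnp01 or in both, while they were higher in atnp02, a difference between lines that was not tested. In WT these were AT2G15010 (-0.16, against 3.51 in atnp02), AT2G28490 (-0.14, against 2.91), AT3G01570 (-0.38, against 2.14) and AT1G04560 (-0.23, against 2.75). In atnp01 they were AT2G28490 (-0.28), OLEO3 (-0.19, against 1.18), AT3G15670 (-0.29, against 2.87), AT1G04560 (-0.67) and AT1G14950 (-0.03, against 2.68). Each value is the difference of 2 single arrays near the low end of the scale. Over all named genes the median difference was -0.0013 in WT and -0.0119 in atnp01, so a slightly lower value is common. The genes were chosen as high in atnp02 at 80 mg/L, and no opposite response is read from these values.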

How the results depend on the processing

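No analysis with a replicate block was possible because each group had 1 array, and the limma fit compared doses within lines. Under quantile and cyclic loess normalization and with probe set means, the 7 counts of genes 2-fold higher in atnp02 at 80 mg/L stayed within 1.5 times those reported. With an offset of 16 on the linear scale the counts fell to 5 against each WT array, 4 against atnp01 at 0 mg/L, 3 against atnp01 at 80 mg/L, 3 against atnp02 at 0 mg/L and 2 against all other arrays. Over all named genes the counts were then 156, 36 and 10 against WT at 0, 40 and 80 mg/L, 146 and 13 against atnp01 at 0 and 80 mg/L, 172 against atnp02 at 0 mg/L and 3 against all, from 467, 150, 72, 449, 72, 509 and 25; the offset draws dim values together by construction. With a floor of log2 6 all 7 counts were 0, since no member reaches it, and the limma fit then held no member. In the limma fit of WT and atnp01, 1 member, PAP85, passed after quantile and 1 after cyclic loess normalization, against 0 otherwise. Over all named genes that fit called 289, against 1602 after quantile and 1762 after loess normalization, 809 of 2065 with a floor of log2 6, 121 without the trend, 7 with a linear dose term and 24 without the line term; the cause was not tested. The low signal over background and the single arrays limit every value.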
